A study of Mus musculus with 6 samples.

Results

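The genes described here are 44 genes of the ATF4 arm of the integrated stress response and of the amino acid metabolism it serves. They were chosen by a loss measured on these same arrays: Trib3 was among the genes with the largest decrease in cabozantinib-treated osteoblasts, and the list was drawn up around it to see whether the rest of the program moved with it. Of the 44 genes, 43 had a probe that could be named, through 54 probes, out of 20659 named genes on the array. The level of Pycr1 was not analysed here, and the gene entered only the promoter search below. Chac1 could be compared only between cabozantinib-treated and undifferentiated cells, because its single spot was flagged as uneven on both arrays of differentiated cells, so 42 of the 44 genes entered the comparison of cabozantinib-treated with differentiated cells.

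Primary osteoblasts from the calvaria of CD1 mice aged 2 to 5 days were grown to confluence (undifferentiated, 2 arrays), then kept for 30 days in differentiation medium without cabozantinib (differentiated, 2 arrays) or with cabozantinib, also called XL184, an inhibitor of receptor tyrosine kinases that include MET and VEGFR2 (cabozantinib-treated, 2 arrays). Total RNA was measured on 1-color Agilent arrays, and levels are given as the log2 signal relative to the 75th percentile of the same array, so that 0 is the level of a fairly bright probe and each unit is a doubling. Levels of different genes come from different probes and are not compared with each other. The labels do not say whether the arrays of a group came from separate cultures or litters, so the p values measure the spread between these arrays, which may be technical.

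Per the file headers, the 4 arrays without cabozantinib were read in 1 scan and the 2 arrays with it in another, so scan and cabozantinib cannot be told apart. The share of spots well above background was 61.1% to 72.9% on the arrays without cabozantinib and 58.8% to 58.9% on those with it. Of 10 osteoblast markers, 8 were above background on every array, among them Alpl, Col1a1 and Ibsp, but the osteoblast factor Runx2 was above background on 0 of 2 differentiated and 1 of 2 cabozantinib-treated arrays, and Sp7 on 1 of 2 in each of these groups. The summed signal of 9 macrophage and osteoclast markers, in multiples of the 75th percentile, was 56.4 to 96.7 in undifferentiated, 328 to 497 in differentiated and 303 to 376 in cabozantinib-treated cells, and that of 7 adipocyte markers was 5.05 to 5.64, 66.1 to 92.2 and 56.0 to 56.2. The adipocyte marker Lep and the endothelial markers Tek and Tie1 were above background on no array. The adipocyte sum is carried mostly by Lpl, and 6 of the 7 adipocyte markers had a difference of cabozantinib-treated minus differentiated cells below 0, with a median log2 difference of -1.36. The adipokine Cfd was called lower at an adjusted p under 0.05 by limma, at -3.67 (SE 0.66, adjusted p = 0.0474), and Fabp4 was at -2.05 (adjusted p = 0.063), Adipoq at -1.36 (adjusted p = 0.225) and Lpl at 0.31. The endothelial cadherin Cdh5 was also called lower, at -2.40 (SE 0.50, adjusted p = 0.0474). The endothelial markers disagreed, however: of 3 tested, 2 were below 0 and Pecam1 was at 0.61. In such mixed cultures, fewer cells of a type and less RNA per cell cannot be told apart, and the part of these cells in the results below was not tested.

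As background, cells answer a shortage of amino acids, misfolded protein in the endoplasmic reticulum and other stresses by phosphorylating the initiation factor eIF2. This lowers general translation but raises translation of the mRNA of ATF4, a basic leucine zipper factor that, usually with a C/EBP partner, turns on genes for amino acid import, amino acid synthesis and tRNA charging. In osteoblasts ATF4 is known for its part in late differentiation, when large amounts of collagen are made and amino acid demand is high. Because ATF4 is controlled largely at translation, its mRNA level does not report its activity.

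ATF4 binds composite C/EBP-ATF elements whose core can be written TGATGNAA. This sequence, on either strand, was searched in the 300 bases around annotated transcription starts, from 250 bases before the start to 50 after it, in RefSeq on GRCm38.p6. Of 36 members with such a window, 13 (36.1%) held at least 1 match, against 4.51% of all 27025 genes. The members were listed as genes of the ATF4 arm, so nothing is read from this share. A match is a description of these letters and not of bound protein. The first 4 windows below belong to members whose mean was more than 2-fold lower in cabozantinib-treated than in differentiated cells, whether or not the difference passed the test (Chac1 only with its flagged spots kept), and the last 4 to members with a smaller mean difference. Each is 30 bases, 5′ to 3′ on the strand of the gene, with the match in capitals.
Trib3 at chr2:152344028-152344057, minus strand: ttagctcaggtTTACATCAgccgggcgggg
Chac1 at chr2:119351038-119351067, plus strand: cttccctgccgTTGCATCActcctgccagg
Asns at chr6:7693214-7693243, minus strand: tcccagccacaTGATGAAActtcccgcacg
Vldlr at chr19:27216809-27216838, plus strand: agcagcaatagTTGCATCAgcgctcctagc
Atf3 at chr1:191183425-191183454, minus strand: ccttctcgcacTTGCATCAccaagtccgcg
Nupr1 at chr7:126625562-126625591, minus strand: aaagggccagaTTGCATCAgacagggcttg
Tars at chr15:11399655-11399684, minus strand: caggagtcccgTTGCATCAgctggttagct
Iars at chr13:49682126-49682155, plus strand: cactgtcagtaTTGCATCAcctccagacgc
The match in Trib3 begins 15 bases after the annotated start and that in Iars 8 bases after it, and the other 6 lie before it, from 15 bases (Tars) to 200 bases (Vldlr). The other members with a match were Slc7a11, Gars, Aars, Slc1a4 and Pycr1. No match was found for Slc7a3, Mthfd2 or Slc6a9, nor for Ddit3, Phgdh, Psph or Psat1.

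**Figure D1:**
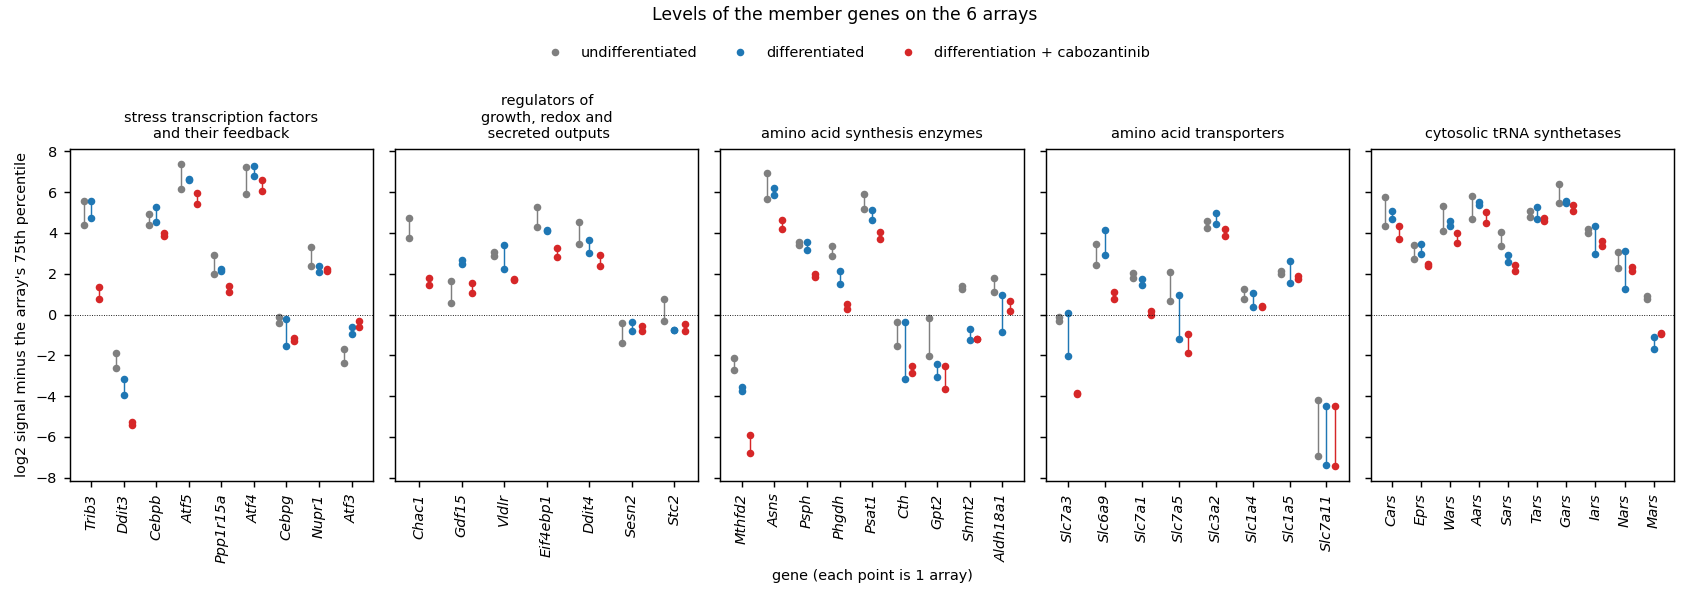
Levels of 43 members on the 6 arrays, as log2 signal minus the 75th percentile of the array (vertical axis), by role and gene (horizontal axis, in order of the difference of cabozantinib-treated minus differentiated cells within each role). Each point is 1 array, and the points of Trib3 with cabozantinib, 0.75 and 1.36, lie far below its other 4, which run from 4.38 to 5.57.

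Against differentiated cells, the cabozantinib-treated cells had a far lower level of Trib3 and lower levels of the amino acid carriers Slc7a3 and Slc6a9, and the one-carbon enzyme Mthfd2, dim in differentiated cells, was not well above background with cabozantinib. Asns and the serine synthesis genes had lower means that did not pass the test, and the tRNA synthetases had a median difference close to that of all genes. Of 42 members tested, 4 were called lower at an adjusted p under 0.05 (Trib3, Slc7a3, Mthfd2 and Slc6a9), and 0 higher, where 2.55% of the 23082 genes tested were called lower and 0.121% higher. The list was built on this contrast, so nothing is read from that count. At an unadjusted p under 0.05 the count was 10 of 42 members (23.8%), the share found over all genes tested (23.4%). The median log2 difference was -0.72 over the members and -0.29 over all genes tested, and under quantile normalization these were -0.56 and -0.08, so the scaling moved the median of all genes by more than 0.1 and the members are best read relative to it, at -0.43 and -0.48. Without differentiated replicate 1 the medians were -0.47 over the members and -0.56 over all genes, so the members as a group were then not lower than other genes, and without cabozantinib replicate 1 they were -0.31 and -0.17. The difference was below 0 for 37 of 42 members and for 67.8% of all genes tested, and the counts below 0 given by role are to be read beside that share. In 25 of 42 both cabozantinib-treated arrays lay below both differentiated arrays, where 44.1% of all genes tested did so.

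**Figure D2:**
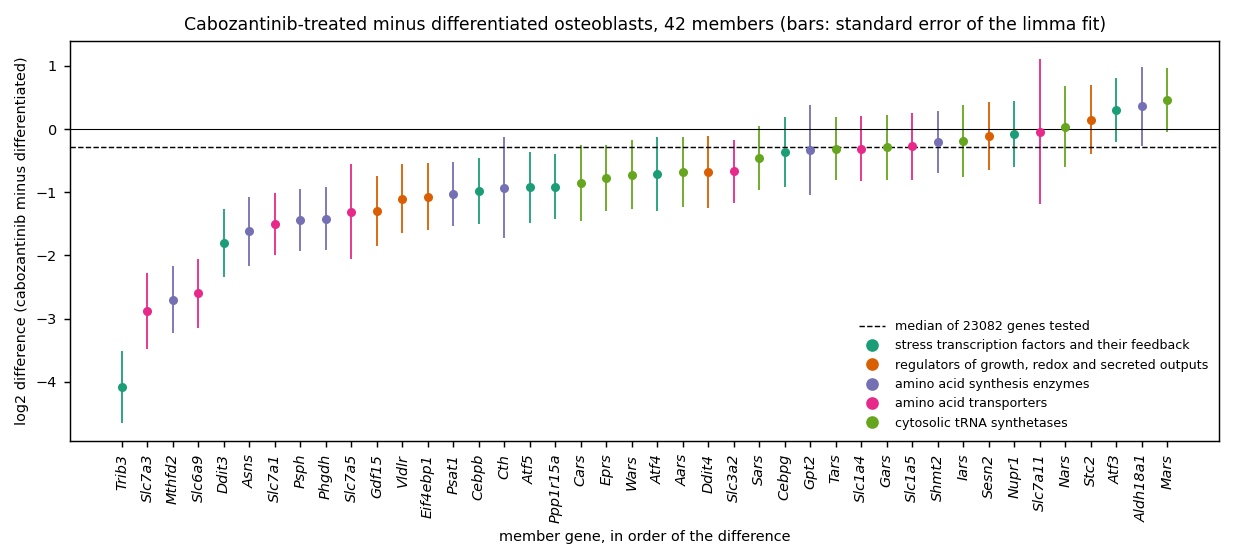
Log2 difference of cabozantinib-treated minus differentiated cells for each of 42 members (vertical axis), in order of its size (horizontal axis), with the standard error of the fit as bars, colors for the role and a dashed line at the median of all genes tested, -0.29. The differences run from -4.08 for Trib3 to 0.46 for Mars.

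Trib3, a pseudokinase induced by ATF4 and CHOP that acts back on ATF4 as a brake, had levels of 5.54 and 4.38 in the undifferentiated arrays, 5.57 and 4.71 in the differentiated arrays and 0.75 and 1.36 in the cabozantinib-treated arrays. The differentiated levels overlapped the undifferentiated ones, and the cabozantinib-treated levels lay below all others. The difference was -4.08 (SE 0.57), a 17.0-fold lower mean, and it was the 3rd lowest of 19491 genes above background on at least 1 array of each of these groups. It is described only, since it chose the list, and like the other called members it was not called under the settings given after the transporters. Leaving out 1 array at a time, it ran from -4.89 to -3.28.

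Ddit3, which encodes CHOP, the partner of ATF4 in prolonged stress, had levels of -1.91 and -2.64, then -3.95 and -3.16, then -5.29 and -5.42 in undifferentiated, differentiated and cabozantinib-treated cells. The 3 groups did not overlap and stood in that order. Its difference from differentiated cells was -1.80 (SE 0.54, adjusted p = 0.0839), and without the replicate block the adjusted p was 0.039. It was above background on 1 of the 2 cabozantinib-treated arrays, and under quantile normalization the difference was -1.07.

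Atf4 itself was at 7.23 and 5.89 in undifferentiated, 6.81 and 7.28 in differentiated and 6.07 and 6.59 in cabozantinib-treated cells. The cabozantinib-treated arrays lay below the differentiated ones but within the range of the undifferentiated ones, and the difference of -0.71 (SE 0.59, adjusted p = 0.575) did not pass the test. Cebpb, a C/EBP factor that pairs with ATF4, differed by -0.98 (SE 0.52, adjusted p = 0.309), Atf5, a related factor, by -0.92 (adjusted p = 0.391) and Ppp1r15a, which encodes the GADD34 subunit that lets eIF2 be dephosphorylated, by -0.91 (adjusted p = 0.348). In all 3 both cabozantinib-treated arrays lay below both differentiated arrays.
Cebpg, another C/EBP partner, differed by -0.36, and the stress regulator Nupr1 by -0.08, with overlapping arrays in both. Atf3, a stress-induced repressor, was at -1.70 and -2.36, then -0.95 and -0.60, then -0.32 and -0.63 across the 3 groups. Its arrays overlapped between the last 2 groups, with a difference of 0.30 (SE 0.51, adjusted p = 0.854).

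**Figure D3:**
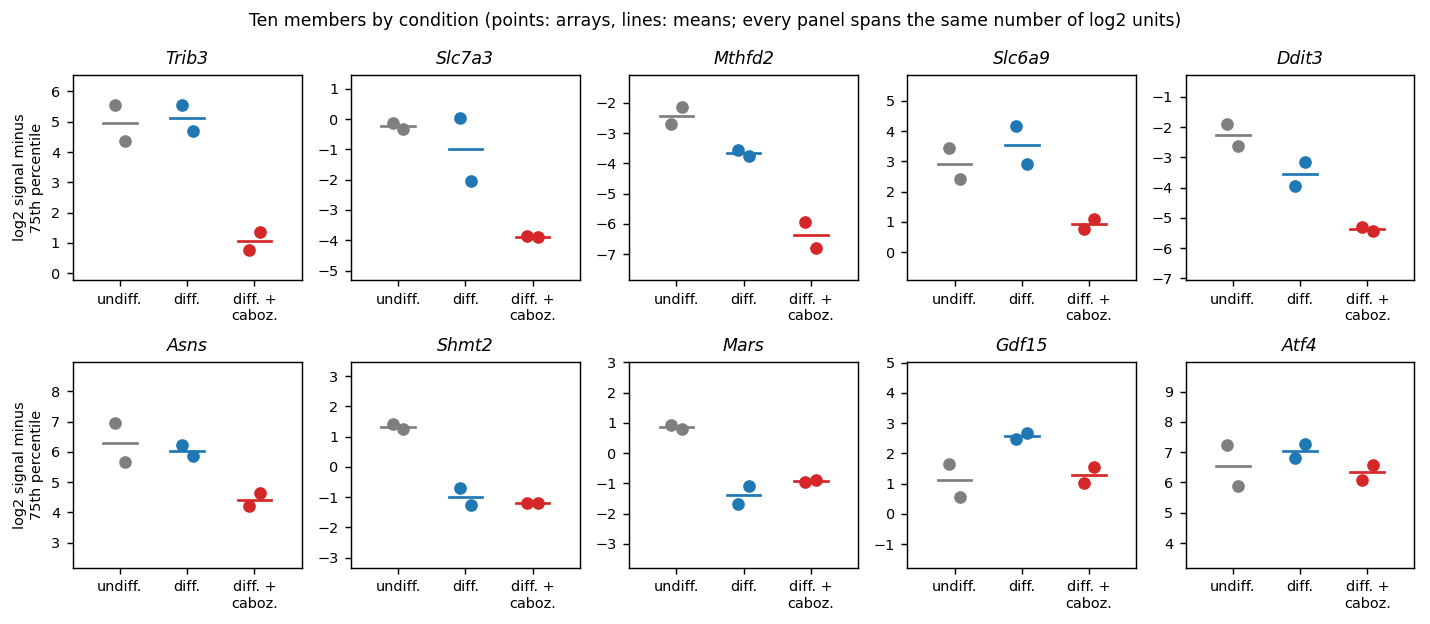
Log2 signal minus the 75th percentile of the array (vertical axis) of 10 members in undifferentiated, differentiated and cabozantinib-treated cells (horizontal axis), with points for arrays and lines for means of 2 arrays. Trib3, Slc7a3, Mthfd2, Slc6a9 and Asns are lower with cabozantinib than in both other groups, whereas Shmt2 and Mars differ between undifferentiated cells and the rest.

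Among the amino acid synthesis enzymes, 8 of 9 members tested had a difference below 0, with a median of -1.03, and 1 was called. Mthfd2, a mitochondrial enzyme that oxidizes the folate-bound carbon released by serine breakdown, was at -2.71 and -2.15 in undifferentiated, -3.55 and -3.74 in differentiated and -5.92 and -6.78 in cabozantinib-treated cells. The 3 groups did not overlap and stood in that order, but the gene was not well above background on either cabozantinib-treated array, and passed the filter on dim probes only through the other 4 arrays, so its direction was not free and its decrease is a bound: it was at least 3.55-fold lower than in differentiated cells (adjusted p = 0.0474). This lower limit sets the differentiated mean against the dimmest signal called above background, or the gene's own where higher, on the cabozantinib-treated arrays.
Asns, asparagine synthetase, was at 6.95 and 5.67, then 6.22 and 5.86, then 4.20 and 4.64. The cabozantinib-treated arrays lay below the other 4, by -1.62 (SE 0.55, adjusted p = 0.117) from differentiated cells. The 3 enzymes that make serine from a glycolytic intermediate were, on the probes used, lower on both cabozantinib-treated arrays than on any other array: Phgdh, the first of them, by -1.42 (SE 0.50, adjusted p = 0.128), Psph, the last, by -1.44 (SE 0.49, adjusted p = 0.114), and Psat1 by -1.03 (SE 0.51, adjusted p = 0.273). Psph passed the test without the replicate block (adjusted p = 0.0386), but its second probe, above background on 6 arrays, gave -0.44 with overlapping arrays. The second probe of Phgdh gave -0.88. That of Psat1 gave -2.71, but its signal on both cabozantinib-treated arrays lay below the dimmest one called above background there. It passed the filter on dim probes only through the other 4 arrays, so its direction was not free and nothing is read from it. Cth, which makes cysteine, differed by -0.93 with overlapping arrays.
Not every enzyme differed. Shmt2, the mitochondrial enzyme that splits serine to glycine, was at -0.71 and -1.26 in differentiated and -1.18 and -1.18 in cabozantinib-treated cells, a difference of -0.20 (SE 0.49, adjusted p = 0.914). Gpt2, an alanine transaminase, differed by -0.33 and by 0.09 under quantile normalization, and Aldh18a1, which starts proline synthesis, by 0.36.

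All 8 amino acid transporters had a difference below 0, with a median of -0.99, although 1 of them, Slc7a11, turned sign under quantile normalization. Slc7a3, a carrier of arginine and lysine, was at -0.14 and -0.34 in undifferentiated, 0.05 and -2.05 in differentiated and -3.86 and -3.90 in cabozantinib-treated cells. Its differentiated arrays were far apart (SD 1.48, n = 2), and the cabozantinib-treated arrays lay below both. It fell by 2.88 on the log2 scale (SE 0.60, adjusted p = 0.0474, 7.36-fold), and by 1.89 without differentiated replicate 1 and 3.87 without differentiated replicate 2. Slc6a9, the glycine transporter GlyT1, was at 3.45 and 2.41, then 4.16 and 2.93, then 0.78 and 1.09. It was lower with cabozantinib than on any other array and fell by 2.60 (SE 0.55, adjusted p = 0.0474, 6.08-fold), and its second probe gave -2.65. Without cabozantinib replicate 1 it fell by 1.89 and without cabozantinib replicate 2 by 3.32.
Slc7a1, the widely used arginine and lysine carrier CAT1, was at 1.76 and 1.43 in differentiated and 0.00 and 0.19 in cabozantinib-treated cells, a difference of -1.50 (SE 0.49, adjusted p = 0.103, and 0.0349 without the replicate block). Slc7a5, the light chain of the large neutral carrier LAT1, differed by -1.31 (SE 0.75, adjusted p = 0.353) with overlapping arrays, and Slc3a2, the heavy chain it needs, by -0.67 (adjusted p = 0.516) without overlap. The neutral carriers Slc1a4 and Slc1a5 differed by -0.31 and -0.27 with overlapping arrays. A second probe of Slc1a5 had the opposite sign, at 0.97. Slc7a11, the cystine carrier, was above background on 1 array of each group and differed by -0.04, or 0.68 under quantile normalization.

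All 4 called members, Trib3 included, lost the call under several other settings. Each was called in 6 of the limma alternatives that left out no single array, among them no replicate block, a variance trend and the mean of probes. The 6 include outlier spots kept and undifferentiated replicate numbers exchanged, both chosen after the data were seen. None was called under quantile normalization, normexp background correction, in the authors' values, when dim probes were kept or when a signal above background was asked of all 6 arrays, a filter that left Mthfd2 untested. Under these settings the calls over all genes tested numbered 0, 1, 0, 0 and 2, in that order, against 616 of 23082 in the main fit. The differences with 1 array left out are given above for Trib3, Slc7a3 and Slc6a9, and that of Mthfd2, near background, ran from -3.23 to -2.18. Such fits leave 1 array in a group, so no call is read from them.

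The regulators of growth, redox and secretion had 5 of 6 tested members below 0, with a median of -0.88 and 0 called. Gdf15, a secreted stress hormone, was at 1.66 and 0.57 in undifferentiated, 2.49 and 2.68 in differentiated and 1.03 and 1.54 in cabozantinib-treated cells. Its differentiated arrays were above all others, and the difference was -1.30 (SE 0.55, adjusted p = 0.193). Vldlr, a lipoprotein receptor, differed by -1.10 (adjusted p = 0.261), Eif4ebp1, the cap-binding repressor 4E-BP1, by -1.07 (adjusted p = 0.271) and Ddit4, the mTORC1 inhibitor REDD1, by -0.68 (adjusted p = 0.584), each without overlap. Sesn2, a leucine sensor, and Stc2, a secreted glycoprotein, differed by -0.11 and 0.15 with overlapping arrays.
Chac1, which breaks down glutathione, was at 4.75 and 3.76 in undifferentiated and 1.43 and 1.80 in cabozantinib-treated cells. With the uneven spots kept, a choice made after the data were seen, its differentiated levels were 4.87 and 4.79, and its difference from them was -3.21 (SE 0.53, adjusted p = 0.0491), a 9.28-fold lower mean, and in the authors' values it was -3.17 (adjusted p = 0.182).

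The cytosolic tRNA synthetases, which charge tRNAs with amino acids, had 8 of 10 members below 0 with a median of -0.39, close to the -0.29 of all genes, and 0 were called. The differences below 0 ran from -0.86 for Cars, through Eprs (-0.78), Wars (-0.72), Aars (-0.68), Sars (-0.46), Tars (-0.31) and Gars (-0.29), to Iars (-0.19), and Nars was at 0.04. In 6 of the 10 both cabozantinib-treated arrays lay below both differentiated arrays, and in Mars, at 0.46 (SE 0.50, adjusted p = 0.713), both lay above. Over all genes tested these shares were 44.1% and 13.4%.

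**Figure D4:**
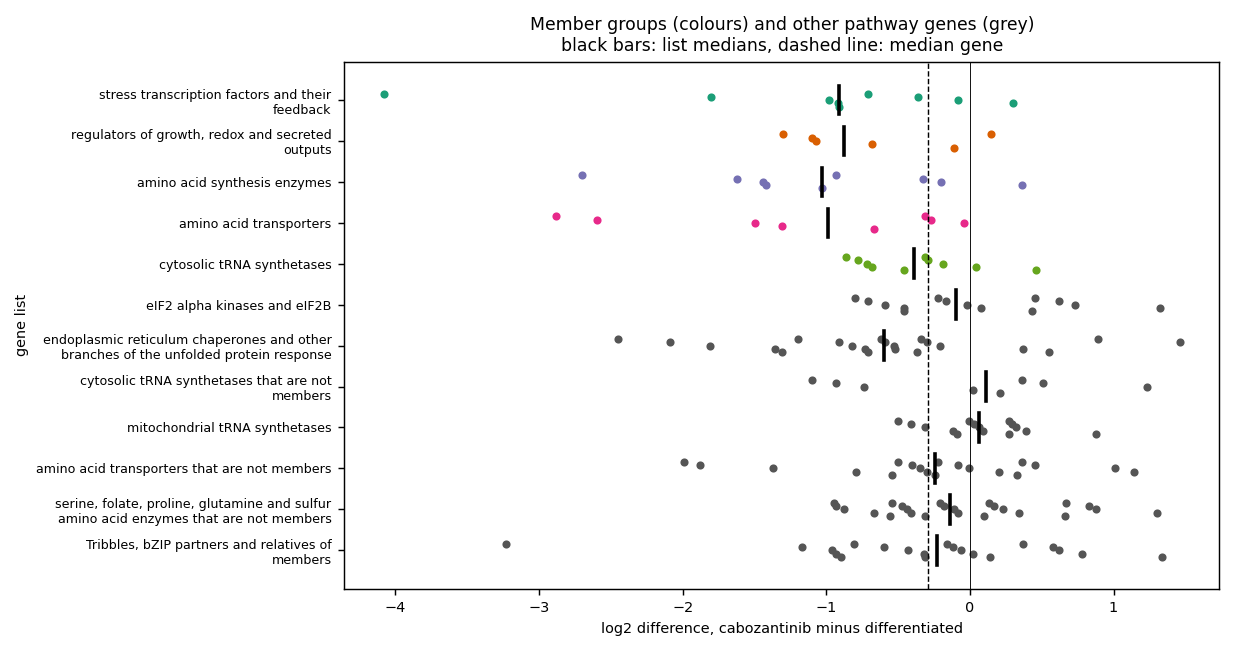
Log2 difference of cabozantinib-treated minus differentiated cells (horizontal axis) for the genes of each list (vertical axis), members in color and other genes of the pathway in grey, with a black bar at the list median and a dashed line at the median gene, -0.29. The bars of the first 4 member groups lie between -1.03 and -0.88, and those of the other lists between -0.60 and 0.11.

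Genes of the same pathway outside the 44 were described from lists chosen by function. Among 14 genes of the eIF2 kinases, eIF2 and eIF2B, the median difference was -0.10 and 0 were called. Values ran from -0.80 for Eif2s2, a subunit of eIF2, to 1.32 for Eif2b3, a subunit of its exchange factor. Among 22 endoplasmic reticulum chaperones and genes of the other branches of the unfolded protein response, 18 were below 0 with a median of -0.60 and 0 were called. Pdia4, a disulfide isomerase, was at -0.69 and -0.25 in differentiated and -2.42 and -2.71 in cabozantinib-treated cells, a difference of -2.09 (SE 0.50, adjusted p = 0.0532), and Atf6, the sensor of another branch, differed by 1.46 (adjusted p = 0.191). These lists therefore held no called gene in this contrast, with differences on both sides of 0.
Of 8 other cytosolic synthetases tested, 3 were below 0, with a median of 0.11, and of 15 mitochondrial synthetases 6 were below 0, with a median of 0.06. Their lowest and highest genes were Yars (-1.10) and Hars (1.23) in the cytosol and Wars2 (-0.50) and Iars2 (0.88) in mitochondria. Of 19 other amino acid transporters 13 were below 0, with a median of -0.24, from -1.37 for Slc38a3 to 1.14 for Slc38a2, both carriers of glutamine, among those above background in both groups. Of 24 other amino acid and folate enzymes 14 were below 0, with a median of -0.14, from -0.95 for Got1 to 1.30 for Oat, a transaminase and an ornithine enzyme. None of these 4 lists had a called gene in this contrast.
Among 20 relatives of the members 13 were below 0, with a median of -0.23, and 1 was called. This was Fgf21, a secreted stress hormone, at -4.24 and -3.73 in differentiated and -6.75 and -7.67 in cabozantinib-treated cells. It was not well above background on either cabozantinib-treated array, passed the filter only through the other groups, and was at least 2.82-fold lower (adjusted p = 0.0474). Among those above background in both groups the values ran from -0.96 for Eif4ebp2, a relative of Eif4ebp1, to 1.34 for the C/EBP factor Cebpa.

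Differentiation without cabozantinib was compared with the undifferentiated state on arrays of 1 scan. It shares the differentiated arrays with the comparison above, so the values stand side by side and neither supports the other. Of 42 members, 2 were called lower and 0 higher, where 4.45% of 23083 genes were called lower and 5.26% higher, so the share of members called lower was near that of all genes. The median was -0.34 over members and 0.11 over all genes, with -0.19 and -0.11 without differentiated replicate 2 and -0.37 and -0.25 without undifferentiated replicate 2. Of the members, 30 of 42 were below 0 (42.6% of all genes), and in 12 both differentiated arrays lay below both undifferentiated arrays, where 19.4% of all genes did so.
Shmt2 was at 1.40 and 1.24 in undifferentiated cells against the -0.71 and -1.26 of differentiated cells given above, and fell by 2.30 on the log2 scale (SE 0.49, adjusted p = 0.0156, 4.94-fold). Mars, the methionine synthetase, was at 0.92 and 0.78 in undifferentiated, -1.69 and -1.08 in differentiated and -0.97 and -0.89 in cabozantinib-treated cells. It fell by 2.23 with differentiation (SE 0.50, adjusted p = 0.0191, 4.70-fold). Both genes were thus low in differentiated cells whether or not cabozantinib was present. The call of Shmt2 was lost under normexp background correction and that of Mars under normexp and with no filter on dim probes. Leaving out 1 array at a time, the difference of Shmt2 ran from -2.54 to -2.07 and that of Mars from -2.55 to -1.91. Slc7a5, at -1.50 (SE 0.75, adjusted p = 0.307), ran from -2.97 to -0.02. Its second probe, above background on 6 arrays, had the opposite sign, at 0.38.
All 9 amino acid synthesis enzymes were below 0 in this comparison, with a median of -1.21, Mthfd2 at -1.21 and Phgdh at -1.29 among them, while Psph was at -0.14 on the probe used and -1.54 on its second probe. The stress factors were divided, with 5 of 9 below 0. Trib3 differed by 0.18 (SE 0.57, adjusted p = 0.955), Atf4 by 0.48 (adjusted p = 0.802), Asns by -0.27 (adjusted p = 0.92) and Ddit3 by -1.28 (adjusted p = 0.204). Gdf15, at 1.47 (SE 0.55, adjusted p = 0.149), and Atf3, at 1.25 (SE 0.51, adjusted p = 0.183), were the 2 members in which both differentiated arrays lay above both undifferentiated arrays. Of all genes tested, 25.9% did so.
Of the other pathway genes, this comparison called Eif2b3, Atf6, Hars, Iars2, the urea cycle enzymes Ass1 and Asl, the transaminase Got2 and the AP-1 factor Fosl1 lower, at -2.79, -2.26, -2.54, -2.35, -2.19, -2.72, -2.12 and -2.62. It called Pdia4 (2.23), the sestrin Sesn1 (2.50) higher. It also called 3 of 19 transporters outside the member list higher, Slc1a3 (3.13), Slc7a7 (2.66) and Slc16a10 (3.01), and 0 lower. Of the 8 member transporters it called 0.

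Cabozantinib-treated cells were lastly set against undifferentiated cells, a comparison that shares arrays with both others and in which scan and group again cannot be told apart. Of 43 members, 11 were called lower (Trib3, Mthfd2, Slc7a3, Ddit3, Phgdh, Slc7a5, Chac1, Shmt2, Slc6a9, Slc7a1 and Mars) and 0 higher, where 8.71% of 23084 genes were called lower and 4.68% higher. The list was built on the loss of Trib3 on these same cabozantinib-treated arrays, so nothing is read from that count. The median was -1.06 over members and -0.35 over all genes, 40 of 43 were below 0 (63.7% of all genes), and in 35 both cabozantinib-treated arrays lay below both undifferentiated arrays, where 43.6% of all genes did so.
Trib3 was 15.0-fold lower (log2 difference -3.91, SE 0.57), which again rests on the cabozantinib-treated values that chose the list. Mthfd2 was at least 8.25-fold lower (adjusted p = 0.0029), but it passed the filter on dim probes only through the other groups, so its direction was not free. Slc7a3 fell 12.5-fold (adjusted p = 0.00684), Ddit3 8.46-fold (adjusted p = 0.00852), Slc7a5 6.99-fold (adjusted p = 0.0384), Phgdh 6.53-fold (adjusted p = 0.0109) and Chac1 6.23-fold (adjusted p = 0.0244). The value of Ddit3 moved with the scaling, to -2.37 under quantile normalization and -1.84 with normexp (adjusted p = 0.192) from -3.08, and it was above background on 1 cabozantinib-treated array. The second probe of Slc7a5 gave -0.69 against -2.80, and Slc7a5 was not called under quantile normalization (adjusted p = 0.145) or without undifferentiated replicate 2 (-1.33), nor with the mean of its probes (-1.74, adjusted p = 0.0503). Mthfd2 was not called with normexp (adjusted p = 0.093). Shmt2 fell 5.66-fold (adjusted p = 0.013), Slc6a9 3.98-fold (adjusted p = 0.0424), Slc7a1 3.55-fold (adjusted p = 0.038) and Mars 3.43-fold (adjusted p = 0.0437). Of 11 limma alternatives that left out no single array, Shmt2 was called in 11, Slc7a1 in 8, Slc6a9 in 7 and Mars in 6.
Asns, at -1.89 (SE 0.55, adjusted p = 0.0504), lay just outside the threshold and passed it without the replicate block (adjusted p = 0.0317), as did Psph, Psat1, Eif4ebp1 and Sars. Atf4 differed by -0.23 (adjusted p = 0.842) and its arrays overlapped. Atf3, at 1.55 (SE 0.51, adjusted p = 0.0693, and 0.0282 without the replicate block), was the member in which both cabozantinib-treated arrays lay above both undifferentiated arrays. Of all genes tested, 19.7% did so. Without cabozantinib replicate 1 the medians were -0.96 over members and -0.24 over all genes, and without cabozantinib replicate 2 they were -1.54 and -0.46. Without undifferentiated replicate 2 they were -1.33 and -0.69.
Among other pathway genes, Fgf21 was at least 2.06-fold lower (adjusted p = 0.0128) and the chaperone Hyou1 at least 1.51-fold lower (adjusted p = 0.0215). Both passed the filter on dim probes only through the other groups, so their direction was not free. Hyou1 was above background on 1 of 2 undifferentiated, 1 of 2 differentiated and 0 of 2 cabozantinib-treated arrays. Eif2b5 (-2.37), Ass1 (-2.60) and Fosl1 (-3.56) were also called lower. The folate enzyme Aldh1l1 (2.27) and Sesn1 (3.08) were called higher, and of 19 other amino acid transporters 1 was called lower and 4 higher.

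**Figure D5:**
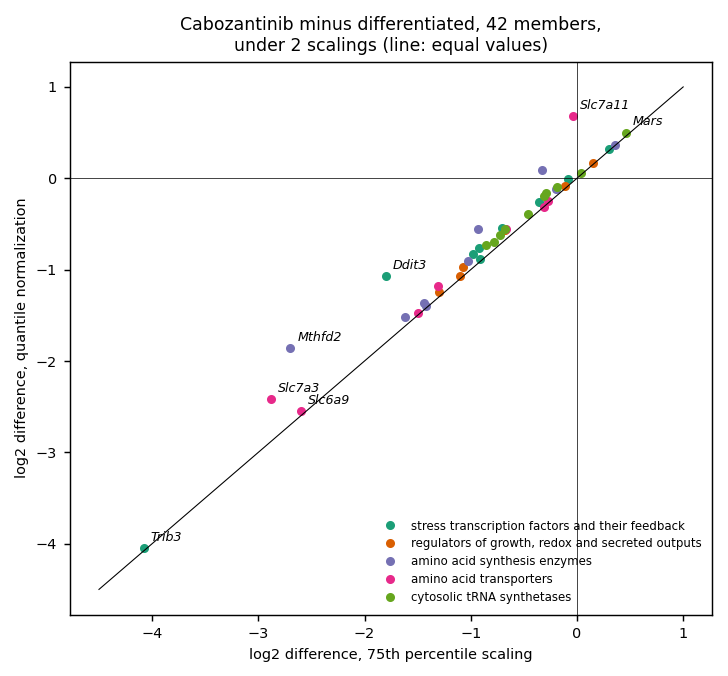
Log2 difference of cabozantinib-treated minus differentiated cells for 42 members after scaling to the 75th percentile (horizontal axis) and after quantile normalization (vertical axis), with a line of equal values and colors for the role. Trib3 is at -4.08 and -4.05, whereas the dim probes of Mthfd2 (-2.70 and -1.86), Ddit3 (-1.80 and -1.07) and Slc7a11 (-0.04 and 0.68) lie above the line.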

How the data were processed

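Total RNA of 6 samples was hybridized to 1-color 4x44K Agilent mouse arrays. The deposited scanner files hold intensities from Feature Extraction 11.0.1.1, background-subtracted and detrended by the software per the file headers and not scaled between arrays. The authors also deposited a table of log2 values of 30439 probes whose distributions are nearly equal on the 6 arrays, with the scaling not stated. Both are used here, the second as an alternative.

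Control spots and spots marked as outliers were left out, replicate spots were averaged, and log2 signals were set relative to the 75th percentile of their array. Probes were named through RefSeq accessions (69.1% of 39429 probes), and other probes kept their own transcript name, so genes tested include unnamed transcripts. Probes that the scanner software called well above background on 2 or more arrays were fitted with limma 3.58.1 in R 4.3.3, with condition and replicate number as terms because the study's statistics name a paired test. P values were adjusted by Benjamini-Hochberg over all probes, a gene was read at its brightest tested probe and called at an adjusted p under 0.05. The fitting was tested on simulated data. The number of arrays limits the precision. A decrease to a group with no array above background is given as a lower limit.

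The members and lists were chosen with earlier results of these data known. The text names all members, the lowest and highest gene of each pathway list above background in both groups of the cabozantinib comparison, and called list genes, by count alone where a list had over 4. Alternatives were quantile normalization, normexp (on median spot and local background signals), the authors' values, 2 filters, no replicate block, fewer arrays, variance trend, mean of probes, leaving out each array, and the methods' t-test. No scan term could be fitted. Tables were made with Python 3.11.15, pandas 2.3.3 and numpy 2.4.6, and figures with matplotlib 3.10.9.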

Additional observations from a re-analysis of the deposited data

How the results depend on the processing

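The number of members called depended on the processing, and the cause was not tested. In cabozantinib-treated minus differentiated cells, 4 members were called. The count was 0 after quantile normalization, normexp, in the authors' deposited values, with no filter on dim probes and with probes above background on all 6 arrays. Over all 23082 genes the count was 616, against 0, 1, 0, 0 and 2 genes in these settings, in that order. With only the 4 arrays compared, 9 members (21.4%) were called, where 5541 of the 23082 genes were called, a larger share. For the other 2 comparisons the share of all genes called stands in parentheses. In differentiated minus undifferentiated cells, 2 members were called (9.71%), against 0 with normexp (3.71%) and 1 with no filter (4.32%). In cabozantinib-treated minus undifferentiated cells, 11 members were called (13.4%), against 7 after quantile normalization (5.7%) and 4 with normexp (2.53%). The authors' values gave 7 (5.64%) and no filter gave 6 (3.6%). The methods' t-test, paired and with a more than 2-fold change at an unadjusted p under 0.05, called 1, 1 and 4 in these comparisons and unpaired 8, 2 and 11, and after Benjamini-Hochberg 0 in each form and comparison, where limma gave 10, 8 and 21 at an unadjusted p under 0.05 (against 23.4%, 20.2% and 31.5% of all genes). Without the replicate block 7, 2 and 17 were called (16.7%, 4.76% and 39.5%, against 12.8%, 13.4% and 24.1% of all genes). Replicate differences correlated at -0.51 (undifferentiated and differentiated), -0.53 (undifferentiated and cabozantinib-treated) and 0.26 (differentiated and cabozantinib-treated), so the arrays may share only a number; with the block and the undifferentiated numbers exchanged, an alternative chosen after seeing the data, 13, 10 and 24 were called (31.0%, 23.8% and 55.8%, against 30.6%, 26.1% and 44.6% of all genes).

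Leaving out 1 array at a time, the members called ranged from 0 to 9, 0 to 7 and 5 to 24, and their medians from -1.05 to -0.31, -0.53 to -0.19 and -1.54 to -0.96. The median in differentiated minus undifferentiated cells was -0.43 after quantile normalization, -0.41 in the authors' values and -0.44 with the mean of probes.

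In cabozantinib-treated minus differentiated cells, the sign turned for Gpt2 (0.09) and Slc7a11 (0.68) after quantile normalization, with the same values in the authors' table, for Sesn2 (0.15) and Nars (-0.09) with normexp and for Slc1a5 (0.35) with the mean of probes. Leaving out 1 array turned it for Atf3 (-0.12 to 0.72), Cebpg (-1.07 to 0.35), Nupr1 (-0.43 to 0.27), Sesn2 (-0.49 to 0.26), Stc2 (-0.28 to 0.58), Shmt2 (-0.43 to 0.04), Aldh18a1 (-0.61 to 1.32), Cth (-2.52 to 0.67), Gpt2 (-1.22 to 0.56), Slc7a11 (-1.46 to 1.38), Slc1a4 (-0.77 to 0.14), Slc1a5 (-0.87 to 0.33), Gars (-0.71 to 0.13), Nars (-1.01 to 1.09), Tars (-0.71 to 0.08) and Iars (-0.99 to 0.61). In differentiated minus undifferentiated cells, leaving out 1 array turned the sign of many members, among them Atf4 (-0.44 to 1.40), Trib3 (-0.34 to 0.69), Asns (-0.93 to 0.39) and Slc7a11 (-3.18 to 2.48). In cabozantinib-treated minus undifferentiated cells it turned several, among them Atf4 (-1.15 to 0.69), Gdf15 (-0.55 to 0.89) and Slc7a11 (-3.22 to 2.45). Signal near background limits Mthfd2, Ddit3 and Slc7a11.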
